A study of Chamaelirium luteum with 2 samples.

Results

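The regions described here are ATAC-seq peaks of *Chamaelirium luteum* leaf nuclei that lie in the chromosome arm just outside a centromere. A peak was a member when its summit, the position of highest signal, lay outside a centromere interval but no farther than 2 Mb from one of its ends. This took 1194 of the 39233 peaks of replicate 1 (3.04%) and 1374 of the 41385 peaks of replicate 2 (3.32%). The rule used position only. The 8 centromere intervals lie on scaffolds 1, 3, 4, 5, 10, 12, 17 and 20 of the authors' assembly and give 16 edges, called left and right after the direction of the scaffold sequence. The whole 2 Mb of arm was present at 11 edges. At the other 5 the scaffold ended earlier, after 0.965 Mb at the left edge of scaffold 10, 0.357 Mb at the left edge of scaffold 12, 0.562 Mb at the right edge of scaffold 17, 0.661 Mb at the left edge of scaffold 20 and 1.49 Mb at its right edge. The zone covered 26.0 Mb in all, and the arms of the same scaffolds beyond 2 Mb, the farther arm, covered 210.1 Mb. Scaffold 20 had no arm beyond 2 Mb and scaffold 17 only 24.1 kb with 4 summits in each library, so the farther arm was that of the other 6 scaffolds, and the edges of scaffolds 17 and 20 were set against the arms of other scaffolds.

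Both libraries came from 1 condition, fresh leaves with no genotype or treatment named in the labels, and each was made from about 75000 nuclei. They are labelled replicates 1 and 2, and the study states that plant material for sequencing was taken from several individuals kept in 1 greenhouse, without naming those behind these libraries. Both labels carry the same code, while the peak names of replicate 2 carry another, and the label was followed. What the codes stand for is not stated. The SDs given below thus cover differences between a pair of libraries, biological or technical, and the tests take scaffolds, not plants, as their unit.

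In ATAC-seq the Tn5 transposase inserts adapters into DNA that nucleosomes leave exposed, so a peak marks a site of open chromatin such as an active promoter or enhancer. The sequence beside a plant centromere is the pericentromere, which in many species is rich in repeats, poor in genes and packed as heterochromatin. The centromeres of this species are long arrays of a satellite repeat bound by the centromeric histone CENH3. The study placed the centromere intervals by sequencing CENH3-bound DNA, so each edge is the limit of that call. Whether the array ends at the same position was not tested.

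Members were sparser than peaks of the farther arm. Replicate 1 had 45.9 member summits per Mb against 58.9 per Mb in the farther arm, and replicate 2 had 52.8 against 62.5. Without scaffolds 17 and 20 the members had 47.4 and 54.7 per Mb. Members were also narrower, farther apart and less often found in both libraries. Replicate 2 had 1.15 times as many members as replicate 1 but only 1.06 times as many peaks in the farther arm. The edges differed widely among themselves, from 17.8 ± 5.03 summits per Mb (mean ± SD, n = 2 libraries) at the right edge of scaffold 17 to 72.6 ± 19.2 at the left edge of scaffold 20. Both of these edges had less than 2 Mb of arm. Among the edges with the whole 2 Mb, the range was from 24.75 ± 1.06 (17 left) to 66.5 ± 7.78 (3 right).

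**Figure D1:**
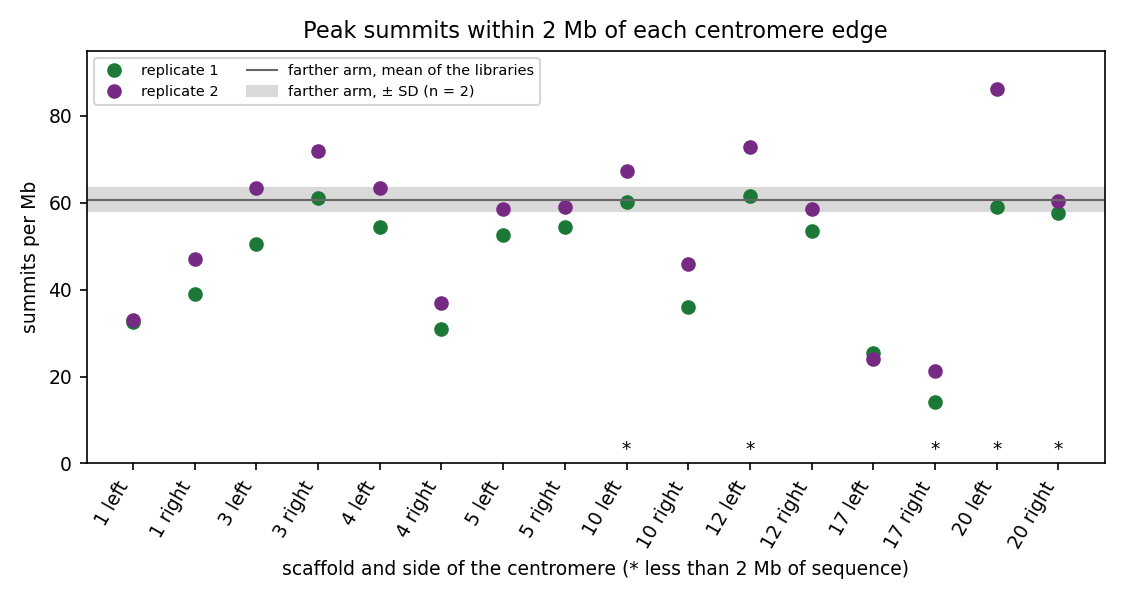
Summits per Mb (vertical axis) within 2 Mb of each of the 16 centromere edges (horizontal axis), with 1 point for each library, and the density of the farther arm as a line with a band of ± SD (n = 2 libraries). The line is the mean of the libraries. Compared with the farther-arm density of the same library, not with this line, both libraries lay below at 10 edges and above at 4. The lowest values were those of scaffold 17.

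At the left edge of scaffold 1 the libraries had 65 and 66 member summits, or 32.5 and 33.0 per Mb, and at the right edge 78 and 94, or 39.0 and 47.0 per Mb. Both edges lay below the farther arm in both libraries. The peaks of the left edge were few but had a high fold over background for the zone, with medians of 5.71 and 6.46. Their median background was low, 3.39 and 3.37 fragments against 5.71 and 5.72 for all members. The median summit held 33 and 31.5 fragments, against 29 for all members in both libraries. Of these peaks, 86.2% and 83.3% had a counterpart, meaning a peak of the other library with at least 1 bp in common. On the right, the first 162.4 kb from the edge held no peak in either library, the only case in which the longest empty stretch of an edge began at the centromere.

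Scaffold 3 had 101 and 127 members on the left (50.5 and 63.5 per Mb) and 122 and 144 on the right (61.0 and 72.0 per Mb). The right edge lay above the farther arm in both libraries. Replicate 2 exceeded replicate 1 by 26 members on the left while the number with a counterpart was 77 in both. The right edge had narrow peaks, with median widths of 301 and 321 bp.

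Scaffold 4 had the largest contrast between sides among the edges with the whole 2 Mb. Its left edge held 109 and 127 members (54.5 and 63.5 per Mb) and its right edge 62 and 74 (31.0 and 37.0 per Mb). The left edge had the widest members of all edges, with medians of 412 and 389 bp, while the medians on the right were 298 and 322 bp. The right edge also held the longest empty stretch, 252.5 kb free of peaks in each library, starting 538.9 kb from the centromere.

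Scaffold 5 was nearly even, with 105 and 117 members on the left (52.5 and 58.5 per Mb) and 109 and 118 on the right (54.5 and 59.0 per Mb). All of these values were below the farther arm of the same library. On the left, 190.6 kb without a peak in either library lay between 177.3 and 367.9 kb from the edge.

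The left edge of scaffold 10, with 58 and 65 members on 0.965 Mb, had 60.1 and 67.4 summits per Mb, above the farther arm in both libraries. Its right edge had 72 and 92 members, 36.0 and 46.0 per Mb. Weak peaks were common at both. A −log10 q under 5 was held by 32.6% ± 2.63 of the left members and 29.8% ± 0.897 of the right ones (SD, n = 2), against 16.6% ± 0.514 in the farther arm.

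On scaffold 12 the short left edge carried 22 and 26 members, 61.7 and 72.9 per Mb, and the right edge carried 107 and 117, 53.5 and 58.5 per Mb. Only the left edge was denser than the farther arm. It also had the shortest longest empty stretch, 42.0 kb. Its members are few, and the medians at this edge differed between the libraries (329 and 269 bp in width).

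Scaffold 17 had the sparsest edges. The left edge held 51 and 48 members on the whole 2 Mb, 25.5 and 24.0 per Mb, and was the only edge with fewer members in replicate 2. The right edge held 8 and 12 members on 0.562 Mb, 14.2 and 21.4 per Mb. In 58.5% ± 6.07 of the left members (SD, n = 2) the modelled background was at its genome-wide minimum, against 16.3% ± 2.66 of all members and 13.5% ± 0.537 of the peaks of the farther arm. MACS takes this minimum where the fragments around a peak do not raise the background above the genome-wide level.

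Scaffold 20 had 39 and 57 members on the left (59.0 and 86.2 per Mb), the densest edge in replicate 2 and in the mean but not in replicate 1, and 86 and 90 on the right (57.7 and 60.4 per Mb). The left edge also had the largest SD of the density between libraries, with 30 and 31 members that had a counterpart and 9 and 26 that did not. The right edge lay just below the farther arm in both libraries.

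Neither direction was favoured. Over the length present on both sides of a scaffold, the left edge was denser in both libraries on 4 scaffolds (4, 10, 12 and 20) and the right edge on the other 4 (1, 3, 5 and 17). Since left and right depend on how each scaffold was written down, the sides of different scaffolds do not correspond.

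In steps of 100 kb counted outward from the edge, density did not rise evenly. Pooled over all 16 edges, the first step had 34.4 summits per Mb in replicate 1 and 42.5 in replicate 2. All of the first 8 steps, up to 800 kb, lay below the farther arm in both libraries, with means between 38.4 and 48.9 per Mb. Of the whole 20 steps, 17 did. The step from 900 to 1000 kb reached 60.1 and 63.3 per Mb, and the step from 1100 to 1200 kb was back at 35.0 and 45.8. The last step, from 1900 to 2000 kb, had a mean of 60.9 ± 1.29 per Mb (SD, n = 2), and all of 1500 to 2000 kb had 57.1 ± 5.40. Restricting the profile to the 11 edges with the whole 2 Mb gave a mean of 35.0 per Mb in the first step and 60.9 in the last.

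**Figure D2:**
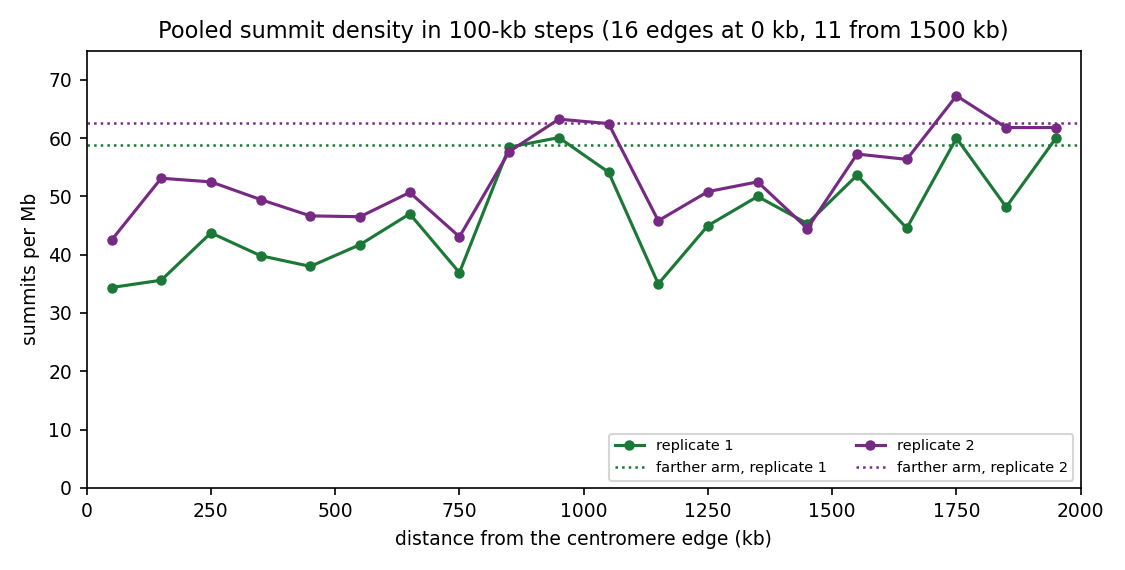
Pooled summit density (summits per Mb, vertical axis) against distance from the centromere edge in steps of 100 kb (horizontal axis, kb), for each library, with the density of the farther arm of that library as a dotted line. The first 8 steps lie below the dotted lines in both libraries, and replicate 2 lies above replicate 1 in most steps.

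The rule's own limits fall on unlike sequence. The last 100 kb inside the centromeres had 13.1 and 13.8 summits per Mb, and the first 100 kb outside 34.4 and 42.5. The authors discarded reads with several mapping places, so closed chromatin and sequence without kept reads cannot be told apart inside the satellite arrays. At the outer limit no break was visible, since the step from 2.0 to 2.1 Mb had 49.8 and 57.6 per Mb. The outermost members had their summits at 1998.9 kb in both libraries, and the first summits beyond the limit lay at 2000.8 kb.

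Within the zone, the inner 500 kb averaged 43.7 summits per Mb per scaffold and the rest of it 51.7, a difference of −8.08 (SD over 8 scaffolds 9.47). The inner part was sparser on 5 of 8 scaffolds (differences of −16.7 to −12.8 per Mb), while scaffolds 3, 10 and 20 were denser inside by 1.52 to 6.18. Flipping the signs of the 8 differences in all ways, as an exact two-sided permutation test, the difference did not pass (p = 0.0625, Benjamini-Hochberg adjusted p = 0.075 over the 6 results tested). It was −10.8 per Mb in replicate 1 alone and −5.33 per Mb in replicate 2 alone.

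Steps at the same distance differed widely between edges. Over the 257 full steps, replicate 1 had 0 to 13 summits per step with a median of 4, and replicate 2 had 0 to 14 with a median of 5. The 3 fullest steps lay 1600 to 1700 kb from the left edge of scaffold 4 (12 and 14 summits), 100 to 200 kb from the left edge of scaffold 20 (13 and 13) and 900 to 1000 kb from the left edge of scaffold 5 (13 and 12). One of the fullest steps was thus the second step from a centromere.

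Neither library had a summit in 9 of these steps. Of the 9, 4 were at the left edge of scaffold 17, at 0 to 100, 300 to 400, 1500 to 1600 and 1700 to 1800 kb, and the other 5 lay 800 to 900 kb left of the centromere of scaffold 1, 0 to 100 kb to its right, 600 to 700 kb right on scaffold 4, 200 to 300 kb left on scaffold 5 and 900 to 1000 kb right on scaffold 10. Counted in each library, 6.23% and 4.28% of the steps were empty, against 4.15% and 3.53% of 2096 windows of the same length in the farther arm. Scaffolds 17 and 20 supplied none of these windows. Of the 16 empty steps of replicate 1, scaffold 17 held 4 on its left and 2 on its right. Of the 11 of replicate 2, it held 4 and 0. These percentages thus cover unlike sets of scaffolds, and an excess of empty steps in the zone cannot be read from them. An empty step holds no peak that passed the authors' threshold, and the fewest fragments at any listed summit were 11 in both libraries. Reads with several mapping places had been discarded, and how much repeated sequence these steps hold was not tested.

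**Figure D3:**
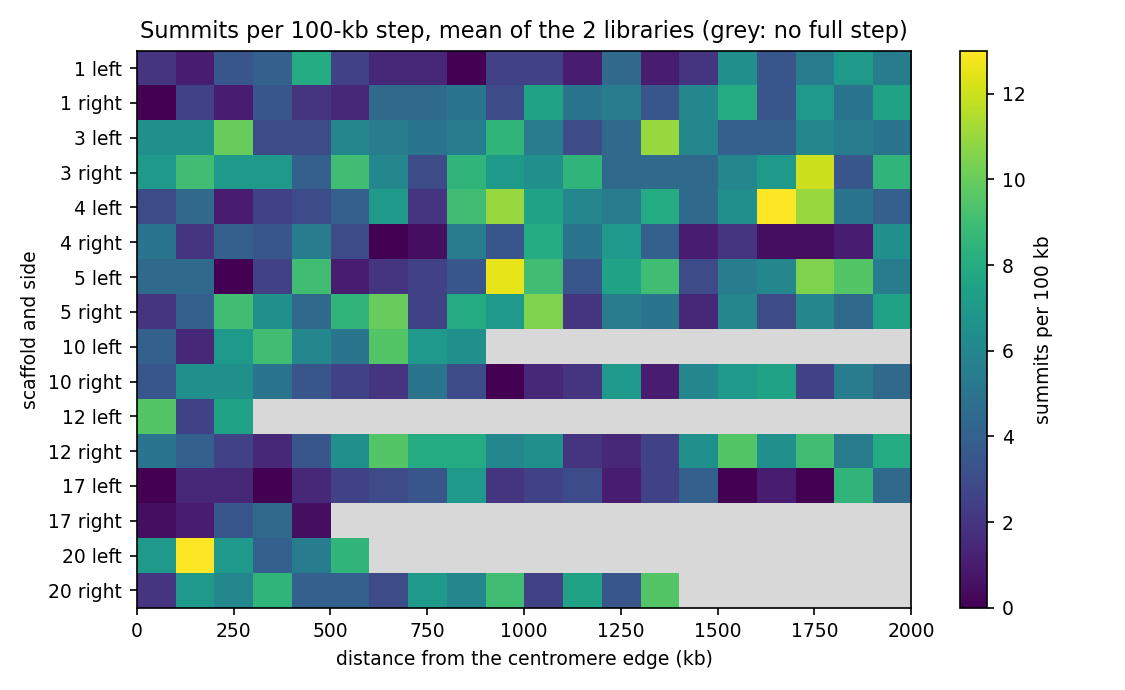
Summits per 100-kb step, as the mean of both libraries (colour, summits per 100 kb), for each edge (rows) against distance from the centromere edge (horizontal axis, kb); grey marks sequence with no full step. Dark steps occur at all distances and are most frequent on the left of scaffold 17, and the brightest steps reach 13 summits.

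Members were narrower than peaks farther out. Their median width was 334.5 bp in replicate 1 and 343.5 bp in replicate 2, against 371 and 363 bp in the farther arm. By distance, the mean of the library medians was 309 ± 0.354 bp in the first 250 kb, 325 ± 4.24 bp from 250 to 500 kb, 344.5 ± 3.54 bp from 500 to 1000 kb, 358.5 ± 4.95 bp from 1000 to 1500 kb and 347 ± 2.83 bp from 1500 to 2000 kb (SD, n = 2). The class next to the centromere thus had the narrowest peaks. It pooled 16 edges and the outermost class 11, and the classes were not repeated on the same edges. Distance and the make-up of the edges cannot be told apart in these values. Both libraries had narrower members than the farther arm at 12 of 16 edges and wider ones at 1, the left edge of scaffold 4.

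On the 6 scaffolds with at least 20 summits in the zone and in the farther arm of each library (1, 3, 4, 5, 10 and 12), the mean difference in median width, zone minus farther arm, was −25.4 bp (SD over scaffolds 13.1). It was negative on 6 of 6, from −43.5 bp on scaffold 10 to −10 bp on scaffold 12 (exact two-sided permutation test by sign flips, p = 0.0312, adjusted p = 0.0469). This p is the smallest that 6 scaffolds can give, and the adjusted value passed because 4 of the 6 results reached it. Among these 4 are the spacing and the ratio of summit numbers between the libraries. Spacing follows from the lower density, known beforehand, and the ratio is tied to sharing. The pass of the width difference thus leans on results that are not separate. In replicate 1 alone the difference was −26.3 bp and in replicate 2 alone −24.5 bp, and neither passed after adjustment (adjusted p = 0.0521 and 0.0781 in the exact permutation test). The difference was smaller without weak peaks. It was −7.00 bp where the −log10 q was 5 or more and −8.42 bp among peaks present in both libraries, and neither passed (exact permutation p = 0.406 and 0.469).

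The signal at the summit ran the same way but did not pass. The median fold over the modelled background was 4.39 and 4.49 in members and 4.70 and 5.02 in the farther arm, and 5 of 6 scaffolds had a lower fold in the zone (difference −0.32, exact permutation p = 0.188). The exception was scaffold 1, where the zone was higher by 0.65, and without it the difference was −0.51. The median background on that scaffold was 3.39 and 3.37 fragments at the left edge and 5.79 and 5.88 at the right. In replicate 1 alone the difference was −0.21 and in replicate 2 alone −0.43. Members had 29 fragments at the median summit in both libraries, against 32 and 33 in the farther arm, on a median background of 5.71 and 5.72 fragments against 5.84 and 5.56. In the first 250 kb the median summit had 24 and 23 fragments.

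Neighbouring member summits were 11.9 and 10.2 kb apart at the median in replicates 1 and 2, and those of the farther arm 9.35 and 8.90 kb. The zone had more of both long and short distances. Over 50 kb were 10.8% and 8.76% of the distances, against 6.59% and 5.83% in the farther arm, and 6.62% and 7.81% were 1 kb or less, against 6.20% and 6.66%. On the 6 scaffolds the median distance was larger in the zone by 2455 bp (SD over scaffolds 1608), on 6 of 6 (exact permutation p = 0.0312, adjusted p = 0.0469). The size depended on the library, with 3431 bp in replicate 1 alone and 1480 bp in replicate 2 alone, where 5 of 6 scaffolds had the larger distance in the zone, and neither passed after adjustment (adjusted p = 0.0521 and 0.104 in the exact permutation test). Spacing is not independent of density, since sparser summits lie farther apart, and the lower density of the zone was known beforehand. The spacing test thus adds no separate result. It is also 1 of the 4 results at the smallest p, on which the adjusted p of 0.0469 in the exact permutation test rests.

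The longest empty stretch, free of peaks in each library, was over 100 kb at 9 of 16 edges and had a median of 115.9 kb. After the 252.5 kb at the right edge of scaffold 4 (positions 35963636 to 36216179) came the 190.6 kb at the left edge of scaffold 5 (15157222 to 15347804) and the 162.4 kb beside the right edge of scaffold 1 (42438857 to 42601270). The stretch on scaffold 5 ended at a strong peak, the third by fold among the shared members.

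Sharing between the libraries was lower near the centromeres. In replicate 1, 927 of 1194 members (77.6%) had a counterpart in replicate 2, and 929 of the 1374 members of replicate 2 (67.6%) had one in replicate 1. In the farther arm 81.6% and 76.8% did. Per scaffold, the mean of both shares differed by −5.61 percentage points (SD over scaffolds 3.64), lower in the zone on 6 of 6, from −10.4 points on scaffold 10 to −1.45 points on scaffold 1 (exact permutation p = 0.0312, adjusted p = 0.0469). The size depended on the library. It was −8.13 points in replicate 2 alone and −3.09 points in replicate 1 alone, where 5 of 6 scaffolds were lower, and neither passed after adjustment (adjusted p = 0.0781 for both in the exact permutation test). The pass with both libraries leans on the spacing and the ratio of summit numbers, as that of the width does.

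Of 5 distance classes, the one next to the centromere had the lowest shares. In the first 250 kb 70.8% of the peaks of replicate 1 and 55.3% of those of replicate 2 were shared. The shares were 77.6% and 61.5% from 250 to 500 kb, 77.2% and 72.4% from 500 to 1000 kb, 76.7% and 68.1% from 1000 to 1500 kb, and 82.6% and 72.8% in the outermost 500 kb. Single steps of 100 kb were less regular, and the lowest share was 66.7% in replicate 1, at 1900 to 2000 kb, and 51.8% in replicate 2, at 100 to 200 kb. Both libraries lay below their own farther-arm share at 13 of 16 edges. The first distance class pooled 16 edges and the outermost 11. At the 5 edges with less than 2 Mb the mean share was 56.25% to 70.5%, against 72.6% for all members. The change of the shares with distance thus mixes distance with the make-up of the edges.

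**Figure D4:**
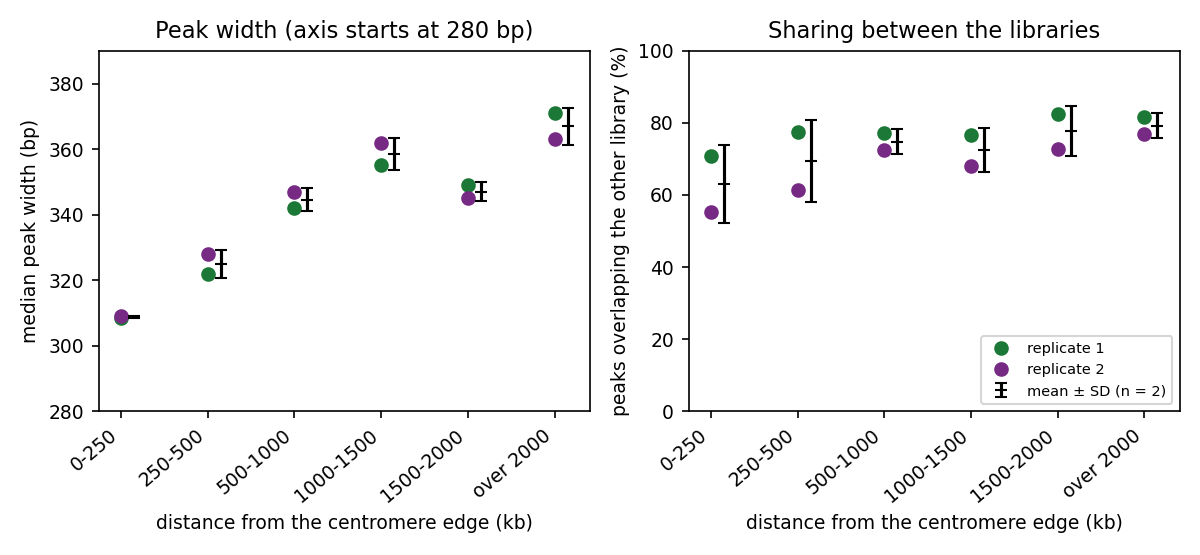
Median peak width (left, bp, on an axis that starts at 280 bp) and the percentage of peaks with a counterpart in the other library (right) by distance from the centromere edge (kb), with 1 point for each library and the mean ± SD (n = 2) beside it. Widths are 309 bp in the first 250 kb and 358.5 bp at 1000 to 1500 kb, and the shares of replicate 2 lie between 55.3% and 72.8% within the zone. The first class pools 16 edges and the outermost class of the zone 11.

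Peaks found in only 1 library were weak. Member peaks without a counterpart had a median width of 236 ± 8.49 bp and 18.5 ± 0.707 fragments at the summit, and shared members 400.5 ± 17.7 bp and 39.0 ± 4.24 fragments (SD, n = 2). Nearly all strong peaks were shared in both parts. Among peaks with a −log10 q of 20 or more, 100% and 99.1% of members were shared, as were 99.9% and 99.7% in the farther arm. Among peaks with a −log10 q under 5, 42.8% and 28.0% of members were shared, against 42.2% and 31.0% in the farther arm. The parts differed more in the middle class, mainly in replicate 2. With a −log10 q from 5 to 20, 81.2% and 65.8% of members were shared, against 83.2% and 75.2% in the farther arm, and 75.8% and 60.7% in the inner 500 kb. Counting only peaks with a −log10 q of 5 or more, the difference over the 6 scaffolds was −3.97 points (exact permutation p = 0.0312, adjusted p = 0.0469). The counterpart of such a peak could still be under 5, so weak peaks were not wholly left out of this share. Here too the adjusted p leans on the spacing and the ratio of summit numbers.

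Replicate 2 listed more peaks than replicate 1, and the excess was larger in the zone. The ratio of peak numbers was 1.05 over all peaks, 1.06 in the farther arm and 1.15 in the zone, and reached 1.28 in the first 250 kb and 1.27 from 250 to 500 kb. All 16 edges entered these distance classes, and fewer entered those farther out. On the log2 scale the ratio of replicate 2 over replicate 1 was 0.21 in the zone and 0.09 in the farther arm, a difference of 0.11 (SD over scaffolds 0.06), higher in the zone on 6 of 6 scaffolds (exact permutation p = 0.0312, adjusted p = 0.0469). Shared peaks paired nearly one to one, so an excess of replicate 2 is an excess of its unshared peaks and lowers its share. Replicate 2 had 445 such members and replicate 1 had 267, and in the inner 500 kb 160 and 78, while the shared members there numbered 224 and 223. Replicate 2 had more members at 15 of 16 edges. The ratio and the share are thus tied to each other, and with the ratio left out of the adjustment, a choice made after seeing the data, the width, sharing and spacing differences each had an adjusted p of 0.0521 in the exact permutation test and did not pass. With 1 library on each side of this ratio, a property of the library and a difference between the leaves cannot be told apart.

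**Figure D5:**
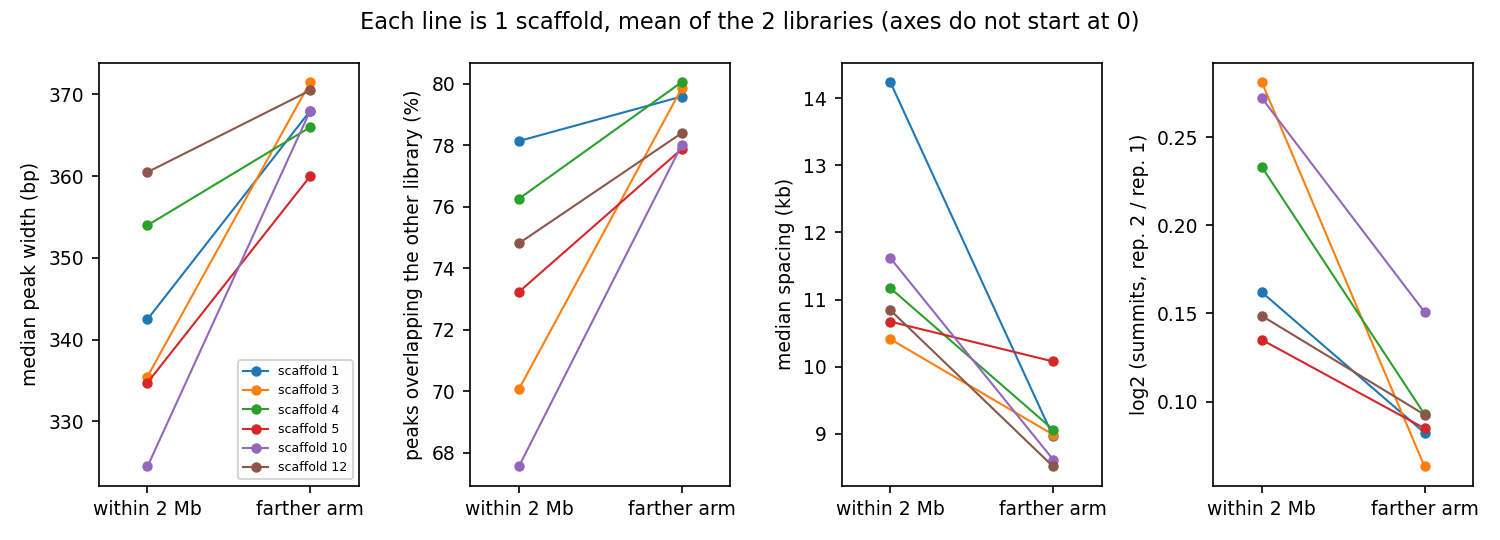
Median width (bp), percentage of peaks overlapping the other library, median spacing (kb) and log2 ratio of summit numbers (replicate 2 over replicate 1) in the zone within 2 Mb and in the farther arm, with 1 line for each of 6 scaffolds (mean of the 2 libraries; axes do not start at 0). All 6 lines run upward in the first 2 panels and downward in the last 2.

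The open site nearest to each centromere was taken as the first peak of replicate 1 with a counterpart in replicate 2. Its summit lay within 50 kb of the edge at 8 edges, between 50 and 100 kb at 5 and beyond 100 kb at 3, with a median of 46.6 kb. The closest was on the left of scaffold 1, 1.36 kb from the centromere at 27139492 to 27139792, with a fold of 7.99 and 34 fragments in replicate 1 and a fold of 10.8 and 44 fragments in replicate 2. A far stronger peak bordered the left edge of scaffold 3, 4.97 kb out at 14373848 to 14374651, with 151 and 204 fragments. The summit on the right of scaffold 10 followed at 10.9 kb.

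The other nearest summits were 36.2 kb (3 right), 39.6 kb (4 left), 76.0 kb (4 right), 71.6 kb (5 left), 74.5 kb (5 right), 27.3 kb (10 left), 27.0 kb (12 left), 25.7 kb (12 right), 65.4 kb (20 left) and 53.6 kb (20 right) from the edge. The 3 most distant were on the right of scaffold 17 (139.4 kb), the right of scaffold 1 (162.6 kb) and the left of scaffold 17 (183.5 kb). These nearest peaks differed widely in strength. The peak on the right of scaffold 17 had 111 and 150 fragments and a fold of 15.1 and 17.3, while the one on the left of scaffold 5 had 14 and 12 fragments and a fold of 3.43 and 3.11. The widest of the 16 was at the left edge of scaffold 20, 1305 bp in both libraries (595315 to 596619), with 160 and 235 fragments.

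Strong and wide peaks were found throughout the zone. The 5 shared members with the largest fold in replicate 1 lay 1444.5 kb right on scaffold 3 (27122709 to 27123277, fold 20.5 and 19.9), 485.9 kb left on scaffold 3 (13892966 to 13893475, 18.9 and 20.2), 177.0 kb left on scaffold 5 (15347822 to 15348386, 18.6 and 18.0), 1839.4 kb right on scaffold 10 (15097590 to 15097946, 17.3 and 19.3) and 975.3 kb right on scaffold 1 (43413919 to 43414496, 17.2 and 19.0). Each had at least 143 fragments at its summit in either library. Their folds differed between libraries by less than the range across the 5.

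The 5 widest shared members spanned 1416, 1415, 1415, 1413 and 1406 bp in replicate 1 and 1372, 1468, 1232, 1365 and 1330 bp in replicate 2. They lay 1379.6 kb left on scaffold 17, 1552.4 kb right on scaffold 12, 67.8 kb left on scaffold 4, 218.3 kb right on scaffold 12 and 1227.2 kb right on scaffold 1. Their folds in replicate 1, from 6.54 to 8.29, were well under those of the strongest peaks. In the farther arm the widest peak reached 2242 and 2271 bp, in a set with many more peaks. Which genes or repeats these peaks overlap was not analysed here.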

How the data were processed

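Reads were adapter-trimmed by the authors (fastp) and mapped to their assembly (BWA-MEM); duplicates and reads with several mapping places were discarded (SAMtools), and MACS called peaks for each library on its own. The deposited peak lists give start, end and summit positions, a fold ratio over the modelled background, −log10 p and −log10 q values, and a score that was not used. The lowest deposited −log10 q was 2.00 in both libraries. Read depth is not in the lists. Fragments and background at each summit were solved from the deposited fold and −log10 p, and gave whole numbers within a relative error of 0.0001 for 100% of peaks. The minimum background was 3.38 fragments in replicate 1 and 3.18 in replicate 2.

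Positions follow the scaffolds of the authors' assembly and start at 1. Centromere intervals and scaffold lengths were read from the study's supplementary table. Medians, shares and densities were computed in each library and averaged. Members were compared with summits of the same scaffold beyond 2 Mb by exact two-sided sign-flip permutation tests over scaffolds with at least 20 summits in both parts, with Benjamini-Hochberg adjustment over 6 results and a threshold of 0.05. Peaks counted as shared when they overlapped by at least 1 bp. The named regions are every edge, its nearest shared peak and longest empty stretch, the 3 fullest and emptiest steps, and the 5 strongest and widest shared members. The members, lists and tests were chosen with earlier results of these data known, and the lower density of the zone was among these. Functions were tested on simulated peak lists. The software was scipy 1.17.1, pandas 2.3.3, numpy 2.4.6, matplotlib 3.10.9 and Python 3.11.15.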

Additional observations from a re-analysis of the deposited data

How the results depend on the processing

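All 83 alternative values of the 6 tested results kept their sign. The adjusted p of the 4 results that passed was close to the threshold, so small changes moved it. Leaving out peaks under a −log10 q of 5 changed the width difference to −7.00 bp, while the density difference between the inner 500 kb and the rest became −9.36 per Mb and passed. Using only shared peaks gave −8.42 bp in width, 3298 bp in spacing and 0.0017 in the log2 ratio, the last by construction, and none passed. With a zone of 1 Mb the differences were −33.2 bp in width, −7.38 points in sharing, 3634 bp in spacing and 0.106 in the log2 ratio. With edges moved outward by 100 kb they were −22.4 bp, −5.05 points, 1795 bp and 0.111. None of these 8 passed after adjustment. Width and sharing in both settings, and spacing with the 1-Mb zone, kept an exact permutation p of 0.0312 on 6 of 6 scaffolds. Their adjusted p rose to 0.0521 and 0.0938 because fewer results of the family reached this smallest p. Leaving out 1 library or 1 scaffold in turn gave −28.45 to −21.75 bp in width, −8.13 to −3.09 points in sharing, 1480 to 3431 bp in spacing and 0.0896 to 0.123 in the log2 ratio. With 5 scaffolds the smallest p is 0.0625, so no value without a scaffold could pass. With 1 library the 6 scaffolds remained, and width, sharing and spacing did not pass after adjustment in either library. Leaving the log2 ratio out of the family, an alternative chosen after seeing the data, kept the values of −25.4 bp, −5.61 points and 2455 bp, and none passed (adjusted p = 0.0521 in the exact permutation test). The fold difference did not pass under any alternative. No paired analysis was possible because the series has 1 condition, so that no group shares replicate numbers with another.

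The lists hold only peaks above a threshold, and weaker signal in an empty step or stretch is not visible in them. Nor is signal in sequence whose reads have several mapping places. The p-values rest on 6 or 8 scaffolds of 1 assembly.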

Other observations

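Over the 257 full steps of 100 kb the variance of the number of member summits was 1.79 ± 0.0152 times its mean (SD, n = 2), and in the windows of the farther arm 1.94 ± 0.0419 times. The first value pools edges of unlike density. Within the 11 edges with the whole 2 Mb the ratio ran from 1.03 to 2.54 in replicate 1 (median 1.39) and from 0.667 to 2.15 in replicate 2 (median 1.70), with the lowest values on scaffold 3 and the highest on the left of scaffold 5. Both libraries ranked the steps similarly, with a Spearman correlation of 0.83 and a Pearson correlation of 0.84 between their step counts across the 257 steps, which share the same genome sequence and are not independent points. Replicate 2 had the higher count in 127 steps and replicate 1 in 58, and the counts were equal in 72.

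Edges with few members had more of them on the lowest background. Across the 16 edges the Spearman correlation between the mean density and the percentage of members at the minimum background was −0.61 and the Pearson correlation −0.78, over points that share both libraries and, in pairs, a scaffold. The fragments around a peak, those of neighbouring peaks among them, set its background, so this relation is partly built into the calculation. The left edges of scaffolds 17 and 1 had 58.5% and 45.1% of their members at this minimum, and the left edges of scaffolds 5 and 3 had 4.95% and 5.73%.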
